A study of Mus musculus with 6 samples.

Results

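Bone morphogenetic protein 4 (Bmp4), its receptor gene Bmpr1a, the 4 inhibitor of DNA binding genes Id1 to Id4 and the inhibitory Smad gene Smad6 were followed through 6 polyA RNA libraries of mouse embryonic stem cells (ESCs). These 7 genes were chosen by name as ligand, receptor, targets and inhibitor of the BMP pathway, with earlier results of these data known. They were taken out of 18857 genes with at least 1 read in the series, and all 7 had reads in all 6 libraries. Each group was 1 library. Wild-type KH2 ESCs, of a C57BL/6 x 129 background, either received PD0325901 over 48 hours or stayed untreated. PD0325901 inhibits Mek, the kinase that activates Erk. The other 4 groups came from iErk1; Erk KO cells of the KH2 line, grown with or without doxycycline (Dox); iErk1 is read here as an Erk1 gene that Dox switches on, which the labels do not spell out. They are called the engineered line. One library came from cells with Dox, and others from cells 48 or 96 hours after its removal, while a further culture kept 96 hours off Dox had PD0325901 over the last 48. The labels state neither the inhibitor's dose, nor whether feeder cells were present, nor how many clones of the line were made, and the promoter behind the inducible gene is not named.

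BMP4 is a secreted ligand that brings together type I receptors such as BMPR1A and type II receptors, and the active receptors phosphorylate Smad1, Smad5 and Smad9, which enter the nucleus with Smad4. The Id genes are direct targets of these Smads. Id proteins are helix-loop-helix proteins without a DNA-binding region that tie up E proteins and so hold back bHLH differentiation factors, and in mouse ESCs BMP4 acting through Id genes is known to sustain self-renewal together with LIF. Smad6, itself a BMP target, inhibits the receptor's signal and closes a negative feedback loop.

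Library totals ran from 9.05 to 9.95 times 1e6 reads assigned to genes, so that 1 read on a transcript of 2 kb equalled between 0.0502 and 0.0553 RPKM, the read count divided by gene length in kilobases and by the library total in units of 1e6. Mapk3, which encodes Erk1, stood at 52.8 RPKM in treated and 56.4 RPKM in untreated KH2 cells. In the engineered line it was at 14.8 RPKM with Dox, 6.86 RPKM after 48 hours without it, and, after 96 hours, 9.18 RPKM with PD0325901 and 6.75 RPKM without the inhibitor. The summed level of 8 ESC markers lay between 1938 RPKM in treated and 2567 RPKM in untreated KH2 cells. Among them the ESC factor gene Pou5f1 was between 539 and 769 RPKM in all 6 libraries. Nanog ran from 105 to 397 RPKM, Utf1 from 28.8 to 262 RPKM and Dppa4 from 51.2 to 230 RPKM. All 14 fibroblast markers examined also had reads in every library. Their summed level was 1549 RPKM in treated against 242 RPKM in untreated KH2 cells, and 586 RPKM in treated against 126 RPKM in untreated Erk KO cells after 96 hours. It was 90.0 RPKM with Dox and 87.2 RPKM after 48 hours without Dox. With 1 library per group there was no spread between replicates, so each ratio compares 2 libraries, and the 95% intervals given with it cover counting error only.

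A gene passed the size rule used for these ratios when its RPKM plus 0.5 differed at least 2-fold (a log2 ratio of at least 1 in size), it had at least 1 RPKM in the higher library and at least 20 reads over both, and the exact interval of its read ratio excluded 1.

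**Figure D1:**
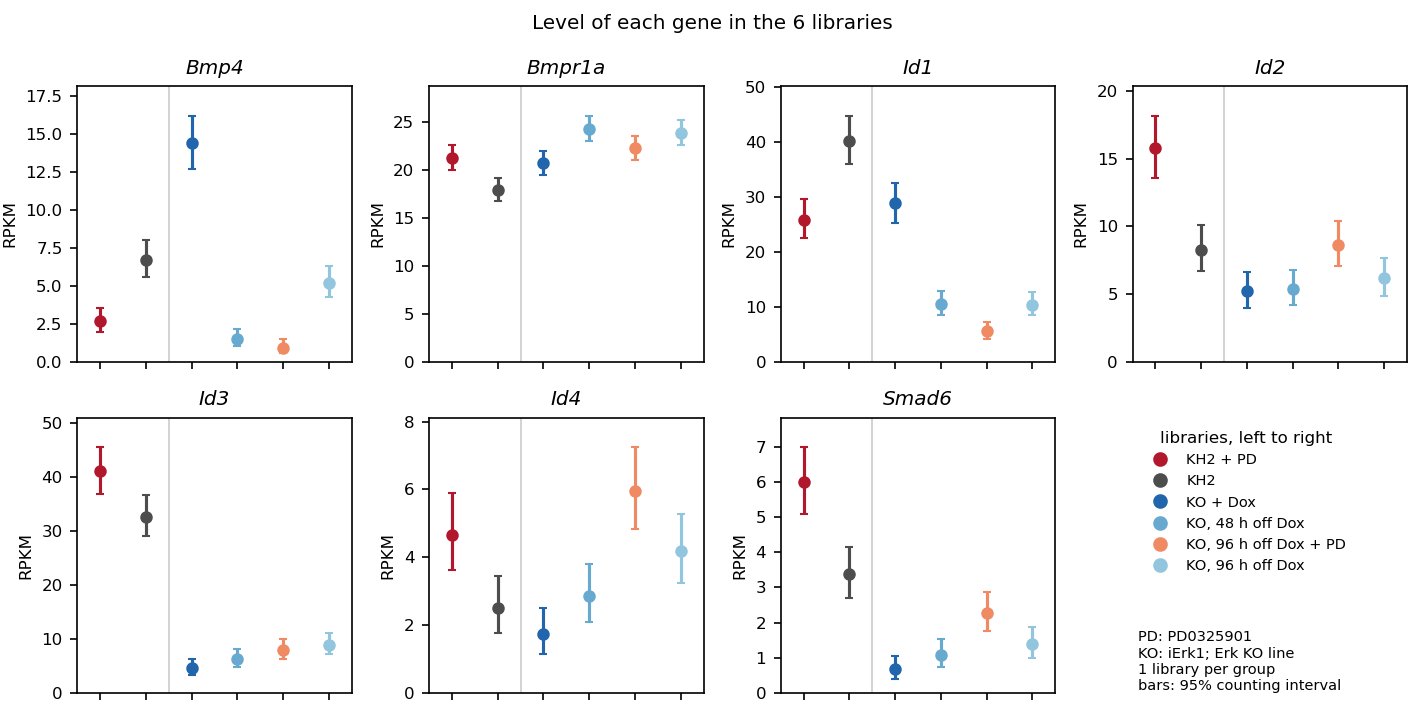
Level in RPKM (y axis, linear, from 0) of each of the 7 genes in the 6 libraries (x axis, left to right as in the legend), with exact 95% counting intervals as bars and 1 library per group. Bmp4 was highest at 14.4 RPKM with Dox and lowest at 0.918 RPKM without Dox with PD0325901. Id3 and Smad6 were higher in both KH2 libraries than in the 4 libraries of the engineered line. The Smad6 intervals of untreated KH2 and treated Erk KO cells overlapped. Bmpr1a stayed between 18.0 and 24.3 RPKM.

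Bmp4, the ligand gene, was lower in both treated libraries and in both libraries taken after Dox withdrawal. It had 48 reads (2.66 RPKM) in treated KH2 cells, against 121 reads (6.68 RPKM) in untreated KH2 cells. The engineered line had 270 reads (14.4 RPKM) with Dox, 29 reads (1.5 RPKM) after 48 hours without Dox, and after 96 hours 18 reads (0.918 RPKM) with PD0325901, against 103 reads (5.19 RPKM) without the inhibitor. The Dox library was thus the highest of the 6 and the treated Erk KO library the lowest. The counting intervals of untreated KH2 cells and the 96 hour library overlapped, as did those of treated KH2 cells and the 48 hour library, and those of the 48 hour and the treated Erk KO libraries, whereas the other neighbours in the order of levels did not overlap. Reads covered 29.4% of the Bmp4 transcript in the treated Erk KO library and 93.2% in the Dox library.

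PD0325901 was accompanied by a Bmp4 level 2.51-fold lower in KH2 cells (interval 1.78 to 3.58) and 5.65-fold lower in Erk KO cells (3.40 to 9.91). After 48 hours without Dox Bmp4 was 9.60-fold lower than with Dox (6.53 to 14.6). At 96 hours it was 2.77-fold lower than with Dox (2.20 to 3.51), and 3.46-fold higher than at 48 hours (2.27 to 5.42). The Dox-maintained line had 2.16-fold more Bmp4 than untreated KH2 cells (1.73 to 2.69). All of these passed the size rule. They are not independent, because the untreated 96 hour library enters the Erk KO ratio with PD0325901 and both 96 hour ratios. The intervals of the treated Erk KO library and the 48 hour library overlapped. The fibroblast markers' sum was 87.2 RPKM at 48 hours and 90.0 RPKM with Dox. It was 1549 RPKM in treated and 242 RPKM in untreated KH2 cells. In Erk KO cells after 96 hours it was 586 RPKM with PD0325901 and 126 RPKM without it. The part of the fibroblast transcripts in the Bmp4 differences was not tested. GENCODE annotates 2 genes on the strand opposite Bmp4, Gm15217 and Gm15222, and the library protocol as labelled marks no strand, so their reads could not be told apart from those of Bmp4.

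The window from 250 bases before to 50 after the Bmp4 start site (RefSeq, build GRCm38.p6, chr14:46390620-46390919, minus strand) is shown because Bmp4 differed most of the 7 genes in both PD0325901 comparisons and at 48 hours without Dox. Capitals mark, on either strand, every CCGGAA (the core bound by ETS factors, several of which are Erk substrates), GTCT (the Smad box) and GGCGCC (bound by BMP-activated Smads).
Bmp4: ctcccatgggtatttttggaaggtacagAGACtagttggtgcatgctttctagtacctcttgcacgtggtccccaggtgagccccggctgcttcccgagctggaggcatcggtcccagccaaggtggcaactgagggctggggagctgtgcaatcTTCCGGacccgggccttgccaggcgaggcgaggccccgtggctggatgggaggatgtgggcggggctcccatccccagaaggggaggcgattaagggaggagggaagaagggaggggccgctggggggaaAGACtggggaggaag
It held 1 CCGGAA, with its first base at −95 from the start site, a motif found in 14.9% of 32851 windows of the same length, and 2 GTCT, found in 88.0%. It held no GGCGCC, which 11.9% of windows hold. Its bases were 64% G or C, beside a median of 52.7% over all windows, and the motif shares were not matched for this. These matches describe the letters and are not shown to be bound.

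Among 5652 genes of proper name with at least 100 reads and a range of at least 1 on the log2 scale, the 3 whose levels followed Bmp4 most closely over the 6 libraries were Myc (Pearson r 0.998, Spearman rho 1), Zfp423 (r 0.971, rho 0.943) and Dusp6 (r 0.963, rho 1), all on log2(RPKM + 0.5). Myc, the proto-oncogene, was at 8.98 RPKM in treated and 19.4 RPKM in untreated KH2 cells. In the engineered line Myc was at 31.9 RPKM with Dox and 5.84 RPKM after 48 hours without it, and after 96 hours at 4.62 RPKM with and 14.2 RPKM without PD0325901. Dusp6 encodes an Erk phosphatase that is itself switched on by Erk signalling. Zfp423 encodes a zinc finger protein that works with BMP-activated Smads. These correlations describe 6 libraries of 2 lines, and 5652 genes were set against these 6 points.

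**Figure D2:**
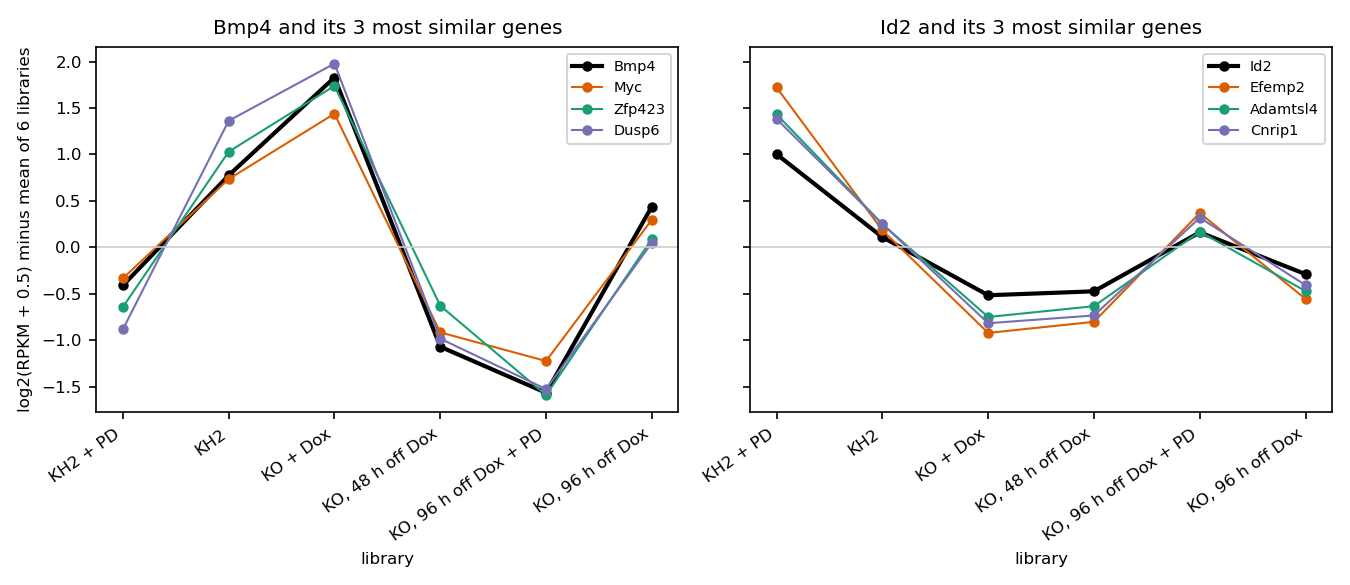
Log2(RPKM + 0.5) minus its mean over the 6 libraries (y axis) for Bmp4 with Myc, Zfp423 and Dusp6 (left) and for Id2 with Efemp2, Adamtsl4 and Cnrip1 (right), in 6 libraries (x axis), where lines only join the points of a gene. Bmp4 and its 3 similar genes were highest with Dox and lowest in Erk KO cells with PD0325901, while Id2 and its 3 were highest in KH2 cells with PD0325901.

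Bmpr1a, which encodes the type I receptor, varied least of the 7 genes. It had 1053 reads (21.2 RPKM) in treated against 895 reads (18.0 RPKM) in untreated KH2 cells. In the engineered line its levels were 20.7 RPKM with Dox, 24.3 RPKM after 48 hours without Dox, and after 96 hours 22.3 RPKM with and 23.9 RPKM without PD0325901. Its log2 ratio lay between −0.10 and 0.23 in the 7 library comparisons, and it passed the size rule in none. At these read counts the intervals were narrow, for instance 0.864 to 1.01 for the ratio with PD0325901 in Erk KO cells.

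Id1 was lower wherever Bmp4 was lower in the engineered line, but was no higher at 96 than at 48 hours. It had 213 reads (25.8 RPKM) in treated against 333 reads (40.2 RPKM) in untreated KH2 cells. The engineered line had 247 reads (28.8 RPKM) with Dox, 93 reads (10.5 RPKM) after 48 hours without Dox, and after 96 hours 49 reads (5.47 RPKM) with PD0325901 against 94 reads (10.4 RPKM) without it. The order of levels placed untreated KH2 cells first and treated Erk KO cells last, and the Dox library overlapped treated KH2 cells, as the 48 hour library did the 96 hour one. Dox withdrawal went with Id1 levels 2.74-fold lower at 48 hours (2.15 to 3.52) and 2.78-fold lower at 96 hours (2.18 to 3.56), and both passed. The 96 hour level was 0.985 of the 48 hour level (0.732 to 1.33). With PD0325901 Id1 was 1.56-fold lower in KH2 cells (1.31 to 1.86) and 1.89-fold lower in Erk KO cells (1.33 to 2.73), both short of the 2-fold limit. The genes that followed Id1 most closely were Fndc4 (r 0.994, rho 1), Ubash3b (r 0.993, rho 0.943) and Myo5a (r 0.991, rho 1), over the same 6 libraries.

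Id2 was higher in both treated libraries and hardly differed with Dox. It had 184 reads (15.8 RPKM) in treated against 97 reads (8.28 RPKM) in untreated KH2 cells. With Dox the engineered line had 63 reads (5.19 RPKM), and it had 67 reads (5.36 RPKM) after 48 hours without Dox, and after 96 hours 109 reads (8.60 RPKM) with PD0325901 against 79 reads (6.16 RPKM) without it. The treated KH2 library stood above the other 5, each of which overlapped its neighbour in the order of levels. Id2 was 1.91-fold higher with PD0325901 in KH2 cells (1.48 to 2.46) and 1.40-fold higher in Erk KO cells (1.04 to 1.89), and it passed the size rule in none of the 7 library comparisons. The 3 genes closest to Id2 were Efemp2 (r 0.999, rho 1), an elastic fibre protein gene, Adamtsl4 (r 0.997, rho 0.943) and Cnrip1 (r 0.996, rho 1). Efemp2 was at 52.3 RPKM in treated against 17.7 RPKM in untreated KH2 cells.

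Id4 was the least abundant Id gene in every library but that of treated Erk KO cells, and its own level was highest there. Its counting interval overlapped that of Id1 in that library, and that of Id2 in the untreated 96 hour library. It had 70 reads (4.66 RPKM) in treated against 38 reads (2.52 RPKM) in untreated KH2 cells. For the engineered line the values were 27 reads (1.73 RPKM) with Dox, 46 reads (2.86 RPKM) after 48 hours without Dox, and after 96 hours 97 reads (5.94 RPKM) with PD0325901 against 69 reads (4.18 RPKM) without it. Every neighbouring pair in the order of its levels had overlapping intervals. Of its library comparisons, 96 hours without Dox against Dox was past the limit, at 2.42-fold (1.53 to 3.92) and a log2 ratio of 1.07. It lay near that limit, with a log2 ratio of 0.99 after TMM scaling, 0.97 with DESeq2 size factors and 0.92 with a pseudocount of 1, and it had too few reads for a minimum of 100. Genes on the opposite strand, A330033J07Rik and Gm49291, overlap Id4 in GENCODE.

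Id3 separated the KH2 cells from the engineered line more than it separated treated from untreated cells. It had 358 reads (41.0 RPKM) in treated against 286 reads (32.6 RPKM) in untreated KH2 cells. Id3 in the engineered line had 42 reads (4.63 RPKM) with Dox, 59 reads (6.31 RPKM) after 48 hours without Dox, and after 96 hours 76 reads (8.02 RPKM) with PD0325901 against 86 reads (8.96 RPKM) without it. No interval of a KH2 library overlapped one of the engineered line. Id3 was 7.05-fold lower in the Dox-maintained line than in untreated KH2 cells (5.09 to 9.99). Among treated cells it was 5.12-fold lower in Erk KO cells than in KH2 cells (3.99 to 6.65). TMM scaling made both differences smaller, at log2 ratios of −2.32 in place of −2.69 and −1.99 in place of −2.29. With PD0325901 the ratio was 1.26 in KH2 cells (1.07 to 1.47) and 0.895 in Erk KO cells (0.648 to 1.23). Sec61b (r 0.998), Ip6k1 (r 0.997) and Tmem128 (r 0.997) followed Id3 most closely over the 6 libraries.

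Smad6, the inhibitory Smad gene, was higher in both KH2 libraries than in the engineered line, as Id3 was. Like Id2, it was higher with PD0325901 in both pairs. It had 161 reads (5.99 RPKM) in treated against 91 reads (3.37 RPKM) in untreated KH2 cells. In the engineered line it had 19 reads (0.680 RPKM) with Dox, 31 reads (1.08 RPKM) after 48 hours without Dox, and after 96 hours 66 reads (2.26 RPKM) with PD0325901 against 41 reads (1.39 RPKM) without it. The treated KH2 library was the highest and the Dox library the lowest. Unlike for Id3, the intervals of untreated KH2 cells and treated Erk KO cells overlapped. Smad6 was 1.78-fold higher with PD0325901 in KH2 cells (1.37 to 2.32) and 1.63-fold higher in Erk KO cells (1.09 to 2.47), below the 2-fold limit. In the Dox-maintained line it was 4.96-fold lower than in untreated KH2 cells (3.0 to 8.61), which passed. Among treated cells it was 2.65-fold lower in Erk KO than in KH2 cells (1.98 to 3.59). That passed, but not after TMM scaling, at a log2 ratio of −0.97. Across the 6 libraries Smad6 correlated with Id2 at r 0.957 (rho 0.943) and with Id3 at r 0.939 (rho 0.943), and with Bmp4 at r −0.307 (rho −0.257).

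The promoter windows of Id2, Id3 and Smad6, whose levels correlated as just described, are shown with the same motifs in capitals, from RefSeq build GRCm38.p6 at chr12:25096043-25096342 (minus strand), chr4:136143572-136143871 (plus strand) and chr9:64022010-64022309 (minus strand).
Id2: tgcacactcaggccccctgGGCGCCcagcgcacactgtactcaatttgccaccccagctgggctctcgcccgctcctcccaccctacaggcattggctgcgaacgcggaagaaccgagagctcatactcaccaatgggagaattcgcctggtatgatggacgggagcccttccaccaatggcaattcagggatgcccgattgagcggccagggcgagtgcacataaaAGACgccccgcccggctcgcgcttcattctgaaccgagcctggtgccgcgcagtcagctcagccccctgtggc
Id3: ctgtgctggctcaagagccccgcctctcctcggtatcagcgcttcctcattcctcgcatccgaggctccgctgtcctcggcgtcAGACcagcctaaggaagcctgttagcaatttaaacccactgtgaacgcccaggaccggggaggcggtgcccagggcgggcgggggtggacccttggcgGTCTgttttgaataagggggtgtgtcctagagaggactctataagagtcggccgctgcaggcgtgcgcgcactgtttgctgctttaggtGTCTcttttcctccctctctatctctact
Smad6: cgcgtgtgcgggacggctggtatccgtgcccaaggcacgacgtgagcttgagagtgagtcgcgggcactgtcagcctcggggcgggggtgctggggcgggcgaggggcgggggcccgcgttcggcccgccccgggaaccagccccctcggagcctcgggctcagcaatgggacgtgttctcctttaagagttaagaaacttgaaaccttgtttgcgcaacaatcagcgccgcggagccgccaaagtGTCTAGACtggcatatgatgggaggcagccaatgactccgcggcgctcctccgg
The Id2 window held 1 GGCGCC, with its first base at −231 from the start site, and the Id3 and Smad6 windows held none. The Id3 window held 3 GTCT. In the Smad6 window a GTCT and its reverse complement met as GTCTAGAC, the palindromic Smad box, with its first base at −4, a sequence found in 0.213% of the 32851 windows and searched for after this window was seen. Windows were at hand for 6 of the 7 genes, all but Id1. GGCGCC also had 1 match in the Bmpr1a window, at −198, and 1 in the Id4 window, at −148 (11.9% of windows hold it). Their share of G and C ran from 60% (Id3) to 79.3% (Bmpr1a), beside the median of 52.7% over all windows. GCGNGGGCG, bound by Egr factors, had 2 matches in the Id4 window and none in the others (5.55% of windows hold it). CANNTG, the E-box bound by bHLH factors, had 3 matches in the Bmp4 window and 1 each in those of Id2 and Smad6 (72.3% of windows).

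The summed level of the 4 Id genes hardly differed with PD0325901 while its composition did. It was 87.3 RPKM in treated and 83.7 RPKM in untreated KH2 cells. Id1 made up 29.6% of that sum in treated and 48.1% in untreated KH2 cells, while Id2 made up 18.1% and 9.90%. In the engineered line the sum was 40.4 RPKM with Dox and 25 RPKM after 48 hours without it, and after 96 hours 28.0 RPKM with and 29.7 RPKM without PD0325901. Id1's part of it was 71.4% with Dox and 42.0% at 48 hours, and at 96 hours 19.5% with and 34.9% without the inhibitor. Id4's part was 4.28% with Dox and 11.4% at 48 hours, and at 96 hours 21.2% with and 14.1% without the inhibitor. These are shares of RPKM, with no replicate check. The fibroblast markers' sum was higher in both treated libraries, and the part of the fibroblast transcripts in the Id sums and shares was not tested.

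**Figure D3:**
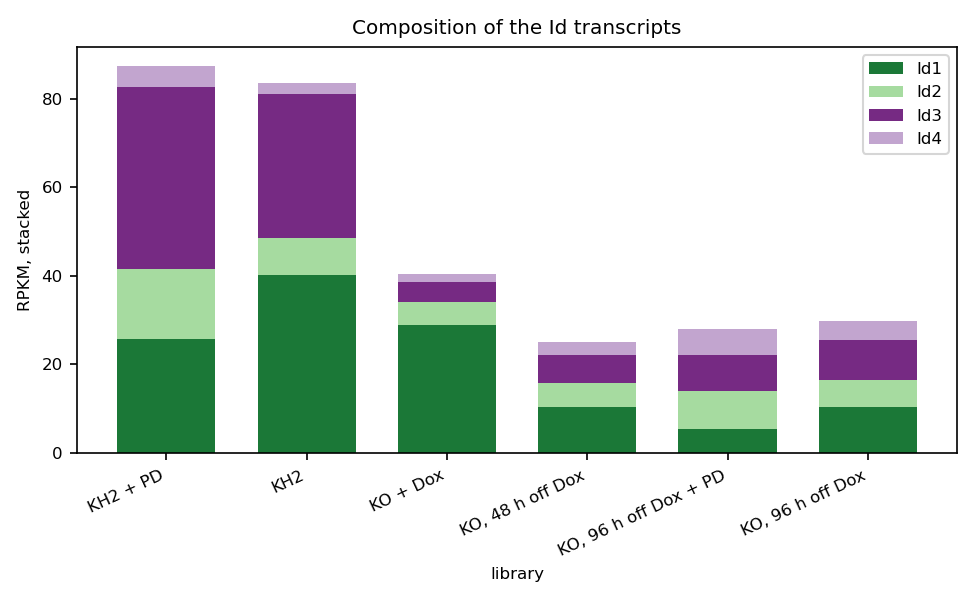
Stacked RPKM (y axis, linear, from 0) of Id1, Id2, Id3 and Id4 in the 6 libraries (x axis), 1 library per bar. In the engineered line Id1 is the largest part with Dox, at 71.4% of the sum, and the smallest in the treated library, at 19.5%. In that treated library the counting intervals of Id1 and Id4 overlapped. Id3 is taller in both KH2 bars than in the other 4.

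The first comparison named in the series' design asked what Mek inhibition does in wild-type ESCs, and the second what it does in Erk KO cells. In each, 1 of the 7 genes passed the size rule, and it was Bmp4, as lower. In KH2 cells 5.08% of 12787 genes tested passed, 3.86% as higher and 1.22% as lower. In Erk KO cells 1.93% of 11920 passed, 1.34% as higher and 0.587% as lower. Beyond Bmp4, Id1 had an interval below 1 in both pairs and Id2, Id4 and Smad6 had intervals above 1 in both, whereas Bmpr1a and Id3 had intervals above 1 in KH2 cells and including 1 in Erk KO cells.

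**Figure D4:**
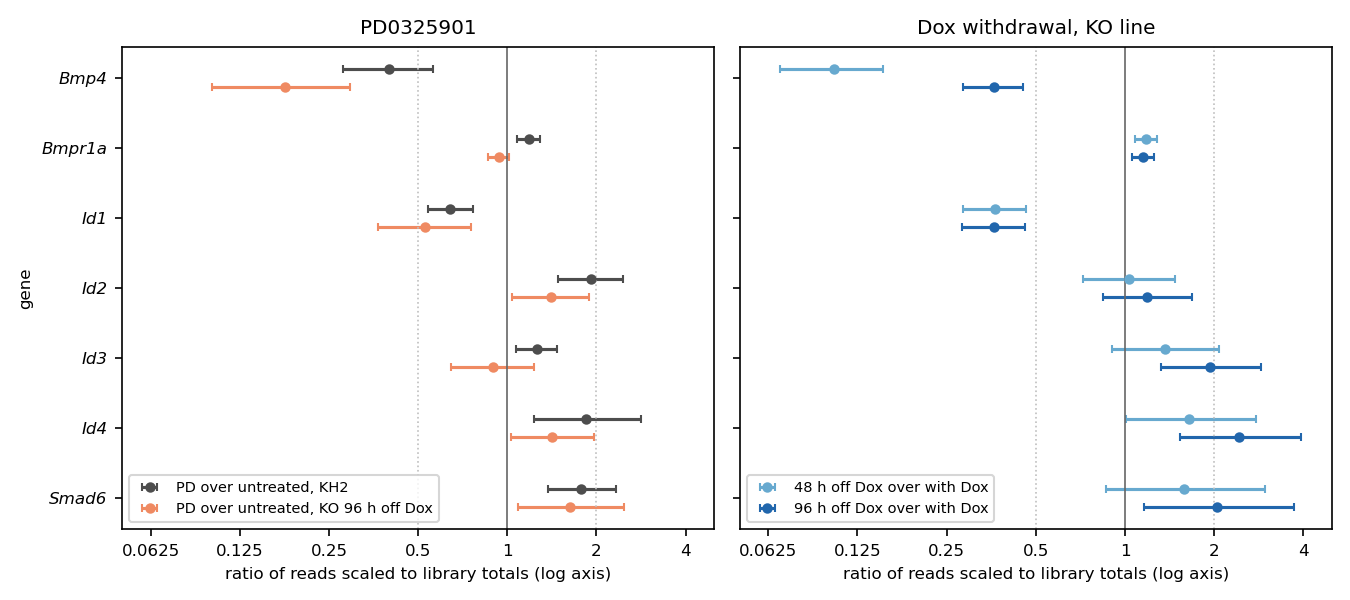
Ratio of reads scaled to library totals (x axis, log scale) for each gene, with exact 95% counting intervals; left, PD0325901 over untreated in KH2 cells and in Erk KO cells 96 hours off Dox; right, 48 and 96 hours off Dox over Dox. Dotted lines mark 2-fold. Bmp4 and Id1 lie below 1 in all 4 comparisons, and Bmp4 lies at 0.104 after 48 hours without Dox and 0.361 after 96 hours.

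These 4 libraries also gave a joint test of PD0325901 in KH2 and Erk KO cells, by edgeR's quasi-likelihood method with cell state as a block and Benjamini-Hochberg adjustment over all 14782 genes. Bmp4 fell by 1.79 on the log2 scale (SE 0.279, adjusted p 0.000677 by edgeR) and Id1 fell by 0.73 (SE 0.178, adjusted p 0.0172). Id2 rose by 0.72 (SE 0.199, adjusted p 0.0333 by edgeR) and Smad6 by 0.78 (SE 0.212, adjusted p 0.0305). Each had the same direction in both pairs. Id4 had a log2 fold change of 0.67 with an adjusted p of 0.093 by edgeR (SE 0.234) and did not pass, nor did Id3 at 0.16 (adjusted p 0.664) or Bmpr1a at 0.07 (adjusted p 0.772). So 4 of 7 members passed, 2 in each direction, where 8.97% of all genes tested did, 6.05% as higher and 2.92% as lower. As the members were chosen with earlier results of these data known, these shares are no test of the set.

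This fit has 1 residual degree of freedom per gene, which comes from how far the 2 pairs differ, and its spread is mostly borrowed across genes. DESeq2 called only Bmp4 of the 7 (adjusted p 0.00222 by DESeq2), and an edgeR fit of all 6 libraries, with the 2 untreated libraries without Dox as 1 state, called none of them, with Bmp4 at an adjusted p of 0.280. Over its alternatives the adjusted p of Bmp4 ran from 1.56e-08 to 1, that of Id1 from 0.00149 to 1, that of Id2 from 0.00803 to 1 and that of Smad6 from 0.0106 to 1, where the highest value is that of edgeR without the block. Of the 14 fibroblast markers, 11 rose and 0 fell in the same edgeR test, with a median log2 fold change of 1.99 against −0.01 over all genes tested. Among them Col1a1 was at 878 RPKM in treated and 96.4 RPKM in untreated KH2 cells, and at 218 RPKM in treated and 25.9 RPKM in untreated Erk KO cells. The part of the fibroblast transcripts in the higher Id2, Id4 and Smad6 levels was not tested, and in bulk RNA more cells of a type and more RNA per cell cannot be told apart.

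Whether PD0325901 differed in effect between Erk KO and KH2 cells was tested with an edgeR interaction over all 6 libraries, whose residual comes from treating the 48 and 96 hour libraries as 1 state. It called 0 of 15103 genes, which is 0%, with 129 at an unadjusted p under 0.05. DESeq2 also called 0, with 30 at an unadjusted p under 0.05. Bmp4's log2 fold change was lower by 0.55 in Erk KO than in KH2 cells, as a log2 difference of −0.55 (SE 0.921, adjusted p 1 by edgeR). That fit averages the 48 and 96 hour libraries, between which Bmp4 differed 3.46-fold. Against the 96 hour library alone its log2 ratio of RPKM plus 0.5 was −2.0 in Erk KO cells, and it was −1.18 in KH2 cells. The other members' log2 differences lay between −0.40 (Bmpr1a, SE 0.367) and 0.0056 (Smad6, SE 0.607). These standard errors limit what a difference test can show here.

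The third comparison of the design asked what follows when Dox is withdrawn for 48 hours, and the 96 hour library extends it. At 48 hours 2 of the 7 genes passed, Bmp4 and Id1, both lower, where 4.89% of 11386 genes tested passed, 2.77% as higher and 2.13% as lower. At 96 hours 3 passed, Bmp4 and Id1 as lower and Id4 as higher, where 9.68% of 11804 genes passed, 7.62% as higher and 2.07% as lower. These comparisons share the Dox library. The untreated 96 hour library is also the one set against PD0325901 in Erk KO cells. Between 48 and 96 hours only Bmp4 passed, as higher, where 5.02% of 11722 genes did, 4.55% as higher and 0.469% as lower. Id2, Id3, Id4 and Smad6 had their lowest values with Dox, though the counting interval overlapped that of the next library for each. The fibroblast markers' sum was 126 RPKM at 96 hours, with 1 of 13 tested markers, Dcn, past the limit as higher than with Dox and 0 lower. The summed level of 6 primitive endoderm markers was 32.7 RPKM with Dox, 24.1 RPKM at 48 hours and 9.02 RPKM at 96 hours.

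Against untreated KH2 cells the Dox-maintained line had 3 of 7 genes past the limit, Bmp4 as higher and Id3 and Smad6 as lower, where 24.2% of 12421 genes passed, 2.76% as higher and 21.4% as lower. Among treated cells, Erk KO cells had 4 genes lower than KH2 cells, Id1 (4.72-fold, 3.45 to 6.58), Id3 (5.12-fold), Bmp4 (2.90-fold, 1.65 to 5.29) and Smad6 (2.65-fold, 1.98 to 3.59), where 19.4% of 12642 genes passed, 3.73% as higher and 15.6% as lower. Scaling mattered in these comparisons between lines. The median log2 ratio of all genes tested was −0.37 for the Dox-maintained line against KH2 cells and −0.01 after TMM scaling, and TMM moved the split of calls to 969 higher and 1448 lower, from 343 higher and 2662 lower. For treated Erk KO against treated KH2 cells the median was −0.27, or 0.01 after TMM scaling, and the split was 472 higher and 1975 lower, or 942 and 1102 after TMM. Of the 4 members lower there, 2 passed after TMM scaling, and Bmp4 at −0.92 and Smad6 at −0.97 no longer did. Id3, at log2 ratios of −2.69 and −2.29, and Smad6 in the Dox-maintained line, at −1.71, lay below these medians. After TMM scaling these ratios were −2.32 and −1.99 for Id3 and −1.42 for Smad6. Bmpr1a in the Dox-maintained line was at a log2 ratio of 0.20, or 0.58 after TMM scaling, and Id1 at −0.47, or −0.09. Of 13 tested fibroblast markers 6 were lower and 0 higher in the Dox-maintained line, and of 14 tested 6 were lower and 0 higher in the treated Erk KO cells. Their part in these member differences was not tested. Line, construct and Erk level cannot be told apart here.

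The rest of the BMP pathway was read from 69 listed genes in 6 groups, all present in the files and listed with earlier results of these data known. With PD0325901 in KH2 cells 7 of the 54 that could be tested passed as higher and 4 as lower, where 3.86% and 1.22% of all genes did. Their median log2 ratio was 0.20, beside −0.02 for all genes. Of 12 tested antagonist genes 5 were higher and 0 lower. Among them Fstl1, a secreted BMP-binding glycoprotein, was at 166 RPKM in treated and 57.8 RPKM in untreated cells, Crim1, a membrane protein that binds BMPs, at 16.4 and 5.69 RPKM, Nbl1 (also called Dan) at 28.7 and 6.68 RPKM, and Bmper at 2.41 and 0.896 RPKM. In the same comparison 10 of 14 fibroblast markers were higher, and their part in the antagonist genes' levels was not tested. Zfp423 was 3.64-fold lower (2.93 to 4.56), Dusp9, an Erk phosphatase gene that BMP signalling maintains in mouse ESCs, was 2.54-fold lower (2.28 to 2.83), and Tcf15, a bHLH factor held back by Id proteins, was 4.43-fold lower (3.44 to 5.76). Atoh8, a bHLH gene, had 61 reads in treated and 8 reads in untreated cells. Bmp2, a related ligand gene, had 52 and 18 reads.

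In Erk KO cells with PD0325901, 2 of 44 tested pathway genes passed in each direction, where 1.34% of all genes passed as higher and 0.587% as lower, and the median log2 ratio was 0.09, beside 0.01 for all genes. Fstl1 (3.30-fold) and Nbl1 (3.18-fold) were higher, and Zfp423 (4.32-fold, 3.14 to 6.04) and the antagonist gene Grem1 (2.17-fold, 1.82 to 2.60) lower. Here 10 of 13 tested fibroblast markers were higher and 0 lower. In the common edgeR test 7 of 60 pathway genes rose and 3 fell, where 6.05% and 2.92% of all genes did. Those that fell were Zfp423 (log2 fold change −1.96, adjusted p 2.38e-06 by edgeR), Tcf15 (−1.68, adjusted p 0.000535) and Dusp9 (−1.21, adjusted p 1.23e-05). Fstl1 (1.62), Nbl1 (1.97), Crim1 (1.07) and Bmper (1.37) rose, as did Atoh8 (2.66), Zeb2 (1.06) and Acvr1 (0.64), which encodes another type I receptor. Of 14 fibroblast markers 11 rose and 0 fell in that test. The part of the fibroblast transcripts in the antagonist genes' levels was not tested in either case.

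After 48 hours without Dox 4 of 43 tested pathway genes were higher and 2 lower, where 2.77% and 2.13% of all genes were. Zfp423 was 6.04-fold lower (4.95 to 7.42) and Tcf15 4.8-fold lower (3.48 to 6.75). Grem1 was 2.25-fold higher, the co-receptor gene Rgma 2.47-fold higher, Tfap2c 2.19-fold higher and Gata3, which BMP can induce, 4.01-fold higher, at 62 reads against 15 with Dox. After 96 hours 5 of 43 were higher and 3 lower, where 7.62% and 2.07% of all genes were. Zfp423 (3.39-fold), Tcf15 (3.43-fold) and Dusp9 (2.22-fold) were lower. Grem1 (2.29-fold), Gata3 (4.10-fold), Prdm1 (3.57-fold), Eng, a co-receptor gene (2.13-fold), and Ascl2 (7.56-fold, with 40 and 5 reads) were higher. Between 48 and 96 hours 3 of 44 were higher, Eng (2.21-fold), Skil (2.06-fold), which encodes a Smad co-repressor, and Ascl2 (3.9-fold), and Gata2 and Tfap2c were lower, where 4.55% of all genes were higher and 0.469% lower. After TMM scaling 1 of 45 was higher and 2 were lower. The signal-carrying Smad genes Smad1, Smad5 and Smad4 and the E protein genes Tcf3, Tcf4 and Tcf12 passed in none of the 7 library comparisons nor in the common test. Smad9, with at most 15 reads in a library, was too low to be tested in the library comparisons.

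Between the lines, the Dox-maintained cells had 0 of 50 pathway genes higher and 17 lower than untreated KH2 cells, where 2.76% of all genes were higher and 21.4% lower. After TMM scaling 3 were higher and 7 lower. Before it the median log2 ratio was −0.70, beside −0.37 for all genes. The 17 included the ligand genes Bmp6, Bmp7 and Bmp8b, and the receptor and co-receptor genes Acvrl1 (4.58-fold), Eng (2.67-fold), Acvr2b (2.63-fold) and Rgmb (2.54-fold). The antagonist genes Grem1 (2.56-fold), Fstl1 (2.27-fold), Crim1 (2.87-fold) and Nbl1 (3.96-fold) were lower too. Dusp9 (2.26-fold) and Ascl2 (19.0-fold, with 5 reads against 92) were also among them. Among treated cells 1 of 53 was higher in Erk KO than in KH2 cells, Gata3 (4.83-fold), and 13 were lower, where 3.73% and 15.6% of all genes were, and after TMM scaling 1 was higher and 9 lower. The median log2 ratio before that scaling was −0.58, beside −0.27 for all genes. The 13 included Crim1 (4.88-fold), Nbl1 (5.65-fold) and Grem1 (2.72-fold). In each of these comparisons between lines 6 fibroblast markers were lower and 0 higher, and their part in the antagonist genes' levels was not tested.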

How the data were processed

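PolyA RNA was sequenced as single-end reads of 50 bases on an Illumina HiSeq, per the labels' protocols, in 6 libraries of 1 group each. Per the file headers, the deposited values of each gene are its count of uniquely mapped reads, its RPKM and the percent of its length covered by reads, all computed by the authors. The counts add up to the total in the header, and RPKM equalled reads per kilobase of the listed length and 1e6 reads of that total for every gene. Per the submitters' processing notes the genome was mm9, and the sources used here name neither aligner nor annotation. A gene with no row counted as 0 reads. Tables were joined by NCBI gene ID. As 4 tables held no symbols, symbols came from RefSeq for 18805 of 18857 genes and from the files for 47. Lengths differed between tables for 41 genes.

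Ratios are of reads scaled to library totals, log2 ratios of RPKM plus a pseudocount of 0.5, and intervals are exact (Clopper-Pearson) at 95%. Reads carry no molecular identifiers, so intervals cover counting error only. No p-value was made for a pair of libraries. The common and difference tests used edgeR 4.0.16 (glmQLFit, TMM, at least 20 reads over the libraries, adjusted p under 0.05), with DESeq2 1.42.0 as an alternative, and each SE was the size of the fold change over the root of F. The common fit had a median of 13.8 prior degrees of freedom. Both tests and the size rule were tested on simulated data. For the tests these had a fixed spread and no difference in level between cell states. They therefore do not show how the tests behave in this design. No label says that libraries came from separate cultures, so p-values measure only the spread between these libraries.

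Members, lists, markers, motifs and tests were chosen with earlier results of these data known. Pathway genes were named when they passed in a comparison, up to 4 per list and comparison with the most reads first, and others named to complete a count were chosen after their values were seen. Similar genes were the 3 with the highest Pearson r. Sequences and their coordinates come from RefSeq on GRCm38.p6, a later build than that of the counts, and were used for nothing else.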

Additional observations from a re-analysis of the deposited data

How the results depend on the processing

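Over 6 alternatives for the size rule (pseudocounts of 0.1 and 1, TMM factors, DESeq2 size factors, no filter, and at least 100 reads), the number of members passing stayed within 1.5 times its first value in every comparison but that of treated Erk KO with treated KH2 cells, where it was 2 in place of 4 under TMM factors and 2 under DESeq2 size factors. There Bmp4 went to a log2 ratio of −0.92 and −0.90 and Smad6 to −0.97 and −0.95. Bmp4 also missed the limit there with a pseudocount of 1, at −0.93, and had too few reads for a minimum of 100. After 96 hours without Dox, Id4 lost its call in 4 of the 6 alternatives (pseudocount of 1, TMM, DESeq2 size factors and 100 reads). For the pathway genes, where TMM and DESeq2 size factors were added after seeing the data, 10 and 10 passed in the Dox-maintained line against KH2 cells in place of 17, and 3 and 3 between 48 and 96 hours in place of 5. For the common test the number of members called was 4, against 1 with DESeq2, 0 without the cell state block and 0 with all 6 libraries in 3 states. The number of all genes called was 1326, against 441, 0 and 118 under these. Among 357 recomputed single values, 323 kept their side and direction, 21 lost their call, 9 left their interval without a call and 4 changed sign. The 4 were Bmpr1a's common fold change with all 6 libraries (−0.0035), and Smad6's difference between states with DESeq2 size factors in edgeR (−0.019), with no filter (−0.00051) and with DESeq2 (−0.017), and none of these values passed before or after. The difference test called 1 gene and 2 genes with the first and second of these settings. The cause of these changes was not tested. No paired analysis was possible because the labels give no replicate numbers, and the cell state block is the nearest to one. No replicate could be left out, as each group held 1 library. Read numbers limit Bmp4 (18 reads in treated Erk KO cells), Smad6 (19 reads with Dox) and Id4 (27 reads with Dox) most.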
